A study of Homo sapiens with 24 samples.

Results

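Axon guidance ligands and receptors were examined in 2 human neuroblastoma cell lines carrying a HOXC9 or a control transgene. The genes were taken by family: 8 ephrins, 10 semaphorins, 2 netrins, 3 slits and reelin as ligands (24 genes), and 13 Eph receptors, 6 plexins, 2 neuropilins, 4 netrin receptors and 2 robos as receptors (27 genes). All 51 were on the array, with 94 probes, among 17199 named genes and 44708 features. IMR-32 has amplification of the MYCN oncogene and SK-N-AS does not. Cultures were labelled by transgene, either HOXC9, a homeobox transcription factor, or GFP (green fluorescent protein) as the control, and were collected at 0 h, at 6, 12 and 24 h, and after 48 and 96 h. Total RNA of every combination was hybridised to 1 one-colour array, which gives 4 groups of 6 arrays with the hours in place of replicates. The labels do not give the vector, the promoter that drives the transgene, whether a line was 1 clone, or whether the hours of a group came from separate cultures, so the p-values measure the spread between these arrays, which may be technical. Levels are log2 of the deposited fluorescence intensity, differences are HOXC9 minus GFP on that scale unless another direction is named, and each gene is represented by its brightest probe.

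Guidance cues steer growing axons and migrating cells by attraction or repulsion. Ephrins are membrane-bound ligands of the Eph receptor tyrosine kinases. Secreted class 3 semaphorins signal through neuropilins that pair with plexins, while membrane-bound semaphorins can bind plexins directly. Netrins attract through DCC and repel through UNC5 receptors, slits repel through ROBO receptors, and reelin acts through the lipoprotein receptors VLDLR and LRP8 on the adaptor DAB1. Neuroblastoma arises from the sympathoadrenal neural crest, whose migration through the embryo is guided by several of these families.

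The HOXC9 probe went with the label in IMR-32 and against it in SK-N-AS. From 6 h on, IMR-32 averaged 10.02 with HOXC9 and 5.94 with GFP, but SK-N-AS averaged 11.71 under the HOXC9 label and 12.28 with GFP. Whether this probe reads the transgene is not given, so every SK-N-AS difference below is one between arrays by their label. The 6, 12 and 24 h arrays of SK-N-AS labelled HOXC9 stood apart from the other 3 of that group: gene levels correlated at 0.983 to 0.988 between these sets and at 0.990 or above within them, and 8.79% of genes differed by at least 1 between them. The same split of hours gave 1.82% in SK-N-AS with GFP, and 1.8% and 3.82% in IMR-32 with HOXC9 and GFP. Results in SK-N-AS that rest on these hours are given with and without them. Of the noradrenergic neuroblastoma markers, 6 of 8 were measured: 1 was higher and 1 lower for IMR-32, and 3 higher and 3 lower for SK-N-AS. TH, the rate-limiting enzyme of catecholamine synthesis, was higher in both lines (medians of 10.57 against 9.03 and of 4.71 against 3.75), and the transcription factor ISL1 was lower in both (-0.71 and -0.90). DBH, which makes noradrenaline, fell by 3.52 in SK-N-AS and did not pass in IMR-32 (-0.40). Of the 6 mesenchymal markers, 2 were higher and 2 lower for IMR-32, and 3 higher and none lower for SK-N-AS, with CD44 (3.74) and PRRX1 (2.60) the widest. Summed over their intensities, where VIM was by far the brightest, the mesenchymal markers lay at 15.78 to 16.14 and 14.66 to 14.91 in the HOXC9 and GFP arrays of IMR-32, and at 17.01 to 17.25 and 17.16 to 17.32 in those of SK-N-AS. In SK-N-AS the 5 endothelial markers summed to 6.31 to 8.34 under the HOXC9 label and to 8.39 to 8.93 with GFP, and 4 of the 5 were lower. The 4 blood cell markers summed to 12.19 to 12.85 and 11.85 to 12.89 in the corresponding arrays of SK-N-AS and to 6.47 to 7.27 and 6.59 to 6.84 in those of IMR-32. Among them PTPRC, a leukocyte phosphatase, had medians of 12.54 and 12.73 in SK-N-AS and of 2.17 and 1.31 in IMR-32. Whether these shifts have a part in the differences below was not tested. In cultures measured as a whole, a change in the share of a cell type and a change of RNA per cell cannot be told apart.

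Promoter windows are shown for the receptor and ligands that the comparisons turn on most: EPHA5 and RELN, the widest differences in IMR-32, SLIT2, the widest in SK-N-AS, and EFNB2, which moved in opposite directions. Sequences are from RefSeq on GRCh38.p14, 5′ to 3′ on the gene's strand, from 250 bases before to 50 after the annotated start, with CG dinucleotides in capitals. EPHA5 has 2 annotated starts and so 2 windows.
EPHA5, chr4:65669439-65669738, minus strand: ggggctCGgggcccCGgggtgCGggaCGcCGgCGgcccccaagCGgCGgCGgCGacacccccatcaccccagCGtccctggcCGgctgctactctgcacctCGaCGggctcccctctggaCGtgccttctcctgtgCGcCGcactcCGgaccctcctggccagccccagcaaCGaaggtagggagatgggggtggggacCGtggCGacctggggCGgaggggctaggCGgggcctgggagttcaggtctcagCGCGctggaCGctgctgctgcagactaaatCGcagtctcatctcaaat
EPHA5, chr4:65670440-65670739, minus strand: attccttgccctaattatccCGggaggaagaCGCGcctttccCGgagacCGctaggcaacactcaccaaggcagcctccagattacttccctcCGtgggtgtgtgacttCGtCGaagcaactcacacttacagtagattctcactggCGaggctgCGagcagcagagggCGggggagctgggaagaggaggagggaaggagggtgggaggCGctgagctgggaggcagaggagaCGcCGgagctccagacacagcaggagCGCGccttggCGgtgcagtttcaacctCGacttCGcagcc
RELN, chr7:103989609-103989908, minus strand: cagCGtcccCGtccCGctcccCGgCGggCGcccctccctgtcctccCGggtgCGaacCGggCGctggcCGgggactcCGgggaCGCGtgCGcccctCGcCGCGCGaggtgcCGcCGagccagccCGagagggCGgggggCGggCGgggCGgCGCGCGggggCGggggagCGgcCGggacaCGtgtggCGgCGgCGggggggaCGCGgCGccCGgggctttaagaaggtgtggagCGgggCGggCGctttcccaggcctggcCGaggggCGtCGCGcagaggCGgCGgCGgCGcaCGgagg
EFNB2, chr13:106535613-106535912, minus strand: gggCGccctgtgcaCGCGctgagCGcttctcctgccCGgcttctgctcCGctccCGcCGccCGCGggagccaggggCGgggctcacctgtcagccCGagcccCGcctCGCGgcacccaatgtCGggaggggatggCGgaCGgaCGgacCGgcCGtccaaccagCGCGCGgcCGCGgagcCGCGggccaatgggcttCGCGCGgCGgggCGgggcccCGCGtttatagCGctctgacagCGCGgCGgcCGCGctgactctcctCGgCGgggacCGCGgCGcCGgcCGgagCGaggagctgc
SLIT2, chr4:20251655-20251954, plus strand: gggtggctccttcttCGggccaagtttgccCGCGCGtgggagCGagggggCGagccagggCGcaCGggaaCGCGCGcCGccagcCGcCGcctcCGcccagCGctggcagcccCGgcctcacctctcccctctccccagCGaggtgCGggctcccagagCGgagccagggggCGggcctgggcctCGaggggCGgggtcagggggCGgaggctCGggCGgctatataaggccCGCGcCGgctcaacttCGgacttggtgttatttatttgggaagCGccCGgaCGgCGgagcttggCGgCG

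The RELN and EFNB2 windows were among the richest in CG of all 35116 promoter windows in the table. RELN held 52 CG dinucleotides, more than 99.2% of all windows, and EFNB2 held 49, more than 98.4%. SLIT2 held 36 (more than 87.3%) and the EPHA5 windows 27 and 19 (more than 71.8% and 57.1%). The median over all windows was 14, that over the 66 windows of the 45 guidance genes with an entry was 24, and 96.0% of all windows held at least 1 CG. TAAT, the core of many homeobox protein sites, was searched for on both strands as TAAT or ATTA, which can overlap as TAATTA or ATTAAT. It matched 3 times in the upstream EPHA5 window, where a TAAT and an ATTA overlap as TAATTA. It matched in none of the other 4 windows printed. Of the windows of guidance genes, 28 of 66 (42.4%) held it, against 50.2% of all windows. These are matches of letters and were not tested for binding. Whether TAAT is the core that HOXC9 prefers was not examined, and no other core was searched for.

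In IMR-32, guidance genes of both kinds differed between HOXC9 and GFP arrays, and the differences ran in both directions. The receptor EPHA5 and the secreted glycoprotein reelin (RELN) were near the lowest intensity on the array with GFP and gave clear signals with HOXC9. The semaphorin SEMA5A and both neuropilins were lower. Of the 51 genes, 12 were higher and 15 lower with HOXC9 at an adjusted p under 0.05, and 24 did not pass. The lower count was 9 without the arrays of 6, 12 or 24 h. Of the 27 calls, 13 held under every alternative in which the gene was tested and 14 ended under at least 1. A gene removed by the alternative that leaves out dim genes was counted over its other alternatives. The background is high: 24% of all 17199 genes passed (12.6% higher and 11.4% lower), against 52.9% of the guidance genes (27 of 51). With the IMR-32 arrays alone, 38.2% of all genes and 54.9% of the guidance genes passed. There EPHB2, PLXNA4 and SEMA3B passed as well, and EPHA2 and SEMA3E did not. Differences of at least 1 were found for 7 higher and 3 lower guidance genes, where 5.4% and 2.41% of all genes reached them. The median difference was -0.15 over the guidance genes and -0.01 over all genes.

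**Figure D1:**
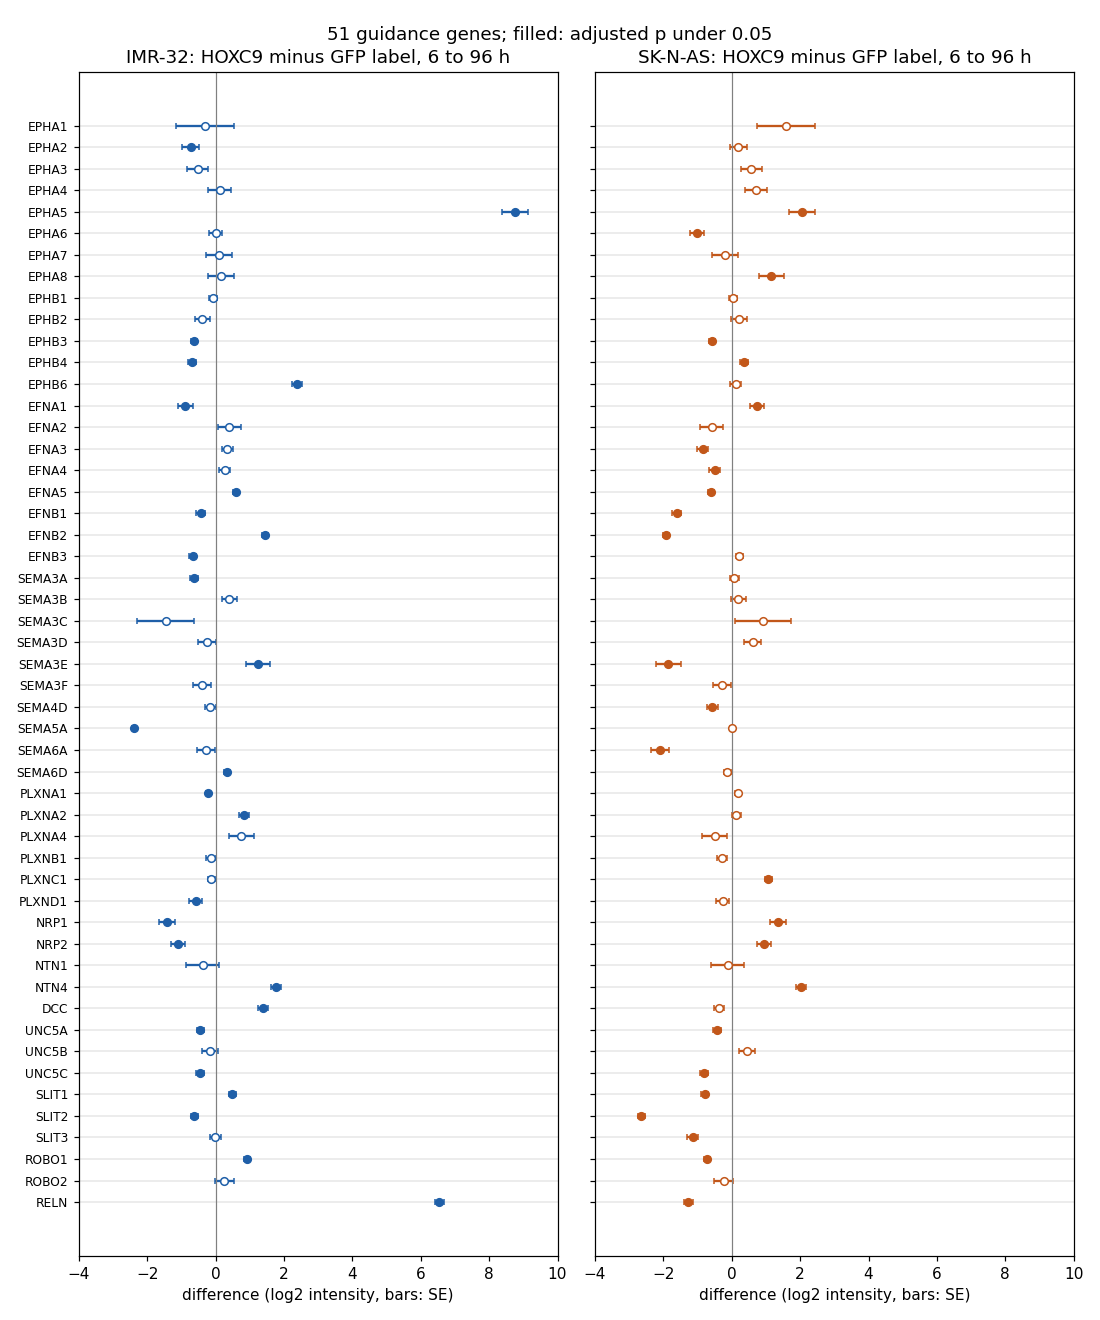
HOXC9 minus GFP difference in log2 intensity (horizontal axis) of each of the 51 guidance genes at 6 to 96 h, with 1 panel per line, bars for the standard error and filled marks for an adjusted p under 0.05. EPHA5 (8.76) and RELN (6.54) stand far to the right in IMR-32, and SLIT2 (-2.64) is the furthest left in SK-N-AS.

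Among the Eph receptors of IMR-32, 2 of 13 were higher and 3 lower. EPHA5 lay at 9.25 to 9.65 (median 9.53) in the 6 HOXC9 arrays and at 0.42 to 2.22 (median 0.43) in the 6 GFP arrays. The groups were far apart, with a single GFP array, at 96 h, above the others. Its difference was 8.76 ± 0.38 (SE; adjusted p = 1.38e-07), and its other probe gave 6.16. Because the GFP level is near the lowest intensity (log2 0.41), the size depends on it: with an offset of 50 units added before the log, the difference was 3.94. EPHB6, a kinase-dead member of the family, was at 6.80 to 7.23 (median 6.93) with HOXC9 and at 4.16 to 4.84 (median 4.66) with GFP. These groups did not overlap either (2.37 ± 0.15, adjusted p = 2.59e-06; 1.21 with the offset of 50 units). EPHB4 and EPHB3 were lower by smaller amounts (-0.70 and -0.64). EPHA2 just passed as lower (-0.74, adjusted p = 0.0490), a call that ended under 8 of 16 alternatives, among them both offsets, every feature tested on its own, and the arrays without 6, 12, 24 or 48 h. The other 8 Eph receptors did not pass, and EPHA1, EPHA3 and EPHA6 had medians under 1 in both groups.

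The ephrins of IMR-32 divided the same way, with 2 of 8 higher and 3 lower. EFNB2, a transmembrane ephrin known for arterial and neural boundaries, lay at 10.33 to 10.68 (median 10.52) with HOXC9 and at 9.0 to 9.25 (median 9.14) with GFP. All HOXC9 arrays were above all GFP arrays (1.44 ± 0.09, adjusted p = 1.51e-06), and the gene's other probe gave 1.53. EFNB1, its X-linked relative, lay at 10.87 to 11.00 (median 10.92) against 11.14 to 11.55 (median 11.41), so the groups were close but separate. The difference was -0.44 ± 0.13 (adjusted p = 0.0362) and did not pass without 6, 12, 24 or 48 h. EFNA5 was higher (0.58), while EFNA1 (-0.88) and EFNB3 (-0.67) were lower, but with the mean of all probes of a gene none of the 3 passed. EFNA1 also lost its call without 24 or 48 h. The dimmer probe of EFNB3 went the other way, at 0.24, and also passed.

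Among semaphorins and their receptors in IMR-32, 6 of the 9 genes that passed were lower with HOXC9. SEMA5A, a transmembrane semaphorin that can attract or repel, was at 6.79 to 7.0 (median 6.87) with HOXC9 and at 9.18 to 9.42 (median 9.33) with GFP. The 6 HOXC9 arrays lay more than 2 below the lowest GFP array. The difference was -2.39 ± 0.06 (adjusted p = 4.47e-09), and -2.30 at its other probe. NRP1, the co-receptor of SEMA3A that also binds vascular endothelial growth factor, was at 8.60 to 8.96 (median 8.77) with HOXC9 and 9.85 to 10.50 (median 10.20) with GFP. Again no HOXC9 array reached the GFP range (-1.43 ± 0.24, adjusted p = 0.00209), and all 5 NRP1 probes were lower, by -1.09 to -1.45. NRP2, the co-receptor that prefers SEMA3F, was lower too (-1.09 ± 0.20, adjusted p = 0.00343). Of the plexins, the signalling subunits, PLXND1 (-0.59) and PLXNA1 (-0.23) were lower and PLXNA2 (0.83) was higher. Without 6, 12, 24 or 96 h, PLXND1 and PLXNA1 did not pass.

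The other semaphorins of IMR-32 moved less, or at dim levels. SEMA3A, a repellent of sensory and sympathetic axons, was lower (-0.63), a call that ended with the 0 h arrays included (adjusted p = 0.0524). The membrane-bound SEMA6D was higher (0.33), but not with the mean of its probes, without the replicate block, or without any 1 of the 5 hours (adjusted p up to 0.350). SEMA3E, a ligand of PLXND1 that needs no neuropilin, lay at 2.48 to 2.86 (median 2.75) with HOXC9 and at 0.66 to 3.23 (median 1.32) with GFP. The groups overlapped, and both were dim. Its difference of 1.24 ± 0.36 (adjusted p = 0.0314) was 0.21 (adjusted p = 0.261) with an offset of 16 units and also lost the call in the IMR-32 arrays alone (adjusted p = 0.0813). SEMA6A, a ligand of A-type plexins, was bright in both groups, at 11.68 to 12.34 (median 12.07) and 12.20 to 12.49 (median 12.41). These ranges overlapped and the difference did not pass (-0.29 ± 0.27, adjusted p = 0.477).

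Of the 6 netrin, slit and reelin ligands of IMR-32, 3 were higher and 1 lower with HOXC9. RELN, whose product guides the layering of neurons, lay at 7.48 to 7.97 (median 7.68) with HOXC9 and at 0.78 to 1.58 (median 1.00) with GFP. The 6 arrays of each group kept to a narrow band far from the other (6.54 ± 0.13, adjusted p = 2.63e-09; 2.29 with an offset of 50 units). NTN4, a netrin that also binds laminin in basement membranes, was at 6.79 to 7.26 (median 7.09) against 4.88 to 5.91 (median 5.08). All HOXC9 arrays were above all GFP arrays (1.75 ± 0.15, adjusted p = 1.73e-05; 1.01 with that offset). SLIT1 was slightly higher (0.49), though not without 24 h (adjusted p = 0.0615), and SLIT2 lower, at 11.24 to 11.44 (median 11.42) against 11.85 to 12.15 (median 12.04), with no overlap (-0.62 ± 0.10, adjusted p = 0.00133). Their receptor ROBO1 was higher (0.92).

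Netrin receptors in IMR-32 were mixed. UNC5C (-0.46) and UNC5A (-0.45), both of which mediate repulsion, were lower, but neither passed without 6 or 12 h. DCC, the attractive netrin receptor, was dim, at 2.55 to 3.96 (median 3.64) with HOXC9 and 1.72 to 3.39 (median 2.73) with GFP. The ranges overlapped through the 0 h pair, in which the HOXC9 array was the lower one. At 6 to 96 h DCC was higher (1.38 ± 0.15, adjusted p = 0.000137), but its other probe gave -0.55, and the mean of both probes gave 0.41 with an adjusted p of 0.115.

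Over all 6 hours, 21 guidance genes had HOXC9 and GFP arrays that did not overlap in IMR-32, 9 higher and 12 lower. Of all genes, 25.6% did not overlap (12.2% higher and 13.4% lower). The higher ones were EFNA5, EFNB2, EPHA5, EPHB6, NTN4, PLXNA2, RELN, ROBO1 and SEMA6D.

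**Figure D2:**
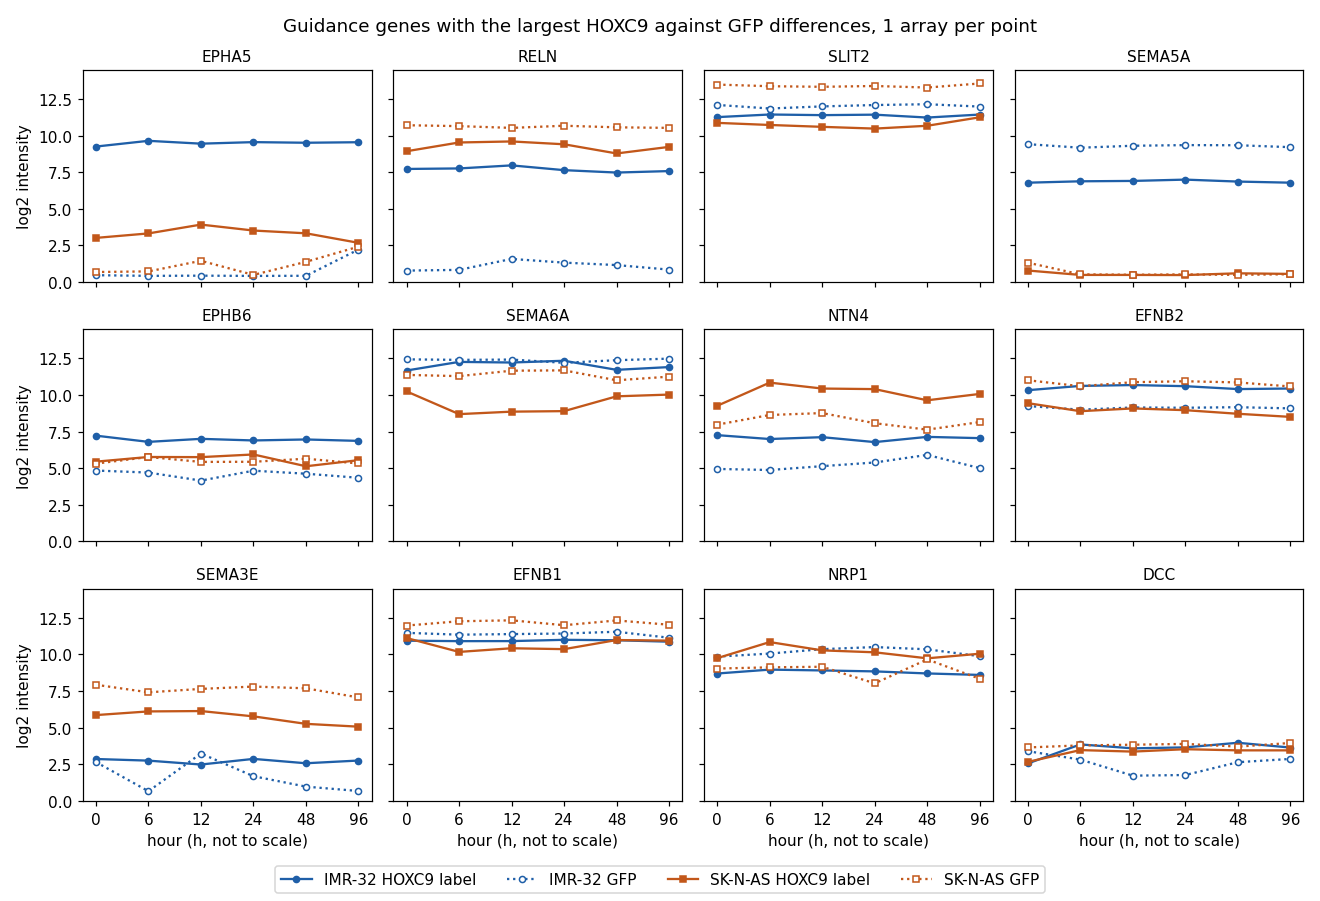
Log2 intensity (vertical axis) at each hour (horizontal axis) in the 4 groups for the 12 guidance genes with the widest differences, 1 point per array. EPHA5 and RELN sit near the floor of the array in the 6 IMR-32 GFP arrays and well above it in the 6 HOXC9 arrays, already at 0 h.

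In SK-N-AS, the ligands that passed were mostly lower under the HOXC9 label. SLIT2, EFNB2, EFNB1, RELN and SLIT3 fell, while NTN4 rose, and among receptors both neuropilins and PLXNC1 rose. Of the 51 genes, 8 were higher and 17 lower, and 26 did not pass. The background was 42.2% of all genes (20.8% higher and 21.4% lower), and 49.0% of the guidance genes passed, a share near it. With the arrays of this line alone, 25.8% of all genes and 41.2% of the guidance genes passed. There DCC and SEMA3C passed as well, and EFNA1, EFNA4, EPHA8, EPHB4, SEMA4D and UNC5A did not. Among ligands, 2 of 24 were higher and 12 lower, and among receptors 6 of 27 were higher and 5 lower. Differences of at least 1 were found for 5 higher and 8 lower guidance genes, against 6.99% and 4.5% of all genes. The median difference was -0.14, against -0.02 over all genes. Without the arrays of 6, 12 and 24 h, 6 were higher and 12 lower, and 15 of the 25 calls were kept. That is 35.3% of the guidance genes, where 22.0% of all genes passed without these arrays. At 0, 48 and 96 h, a setting added after seeing the data, 20 of the 25 calls were kept. There, 51% of the guidance genes and 31.8% of all genes passed. Of the 25 calls, 12 held under every alternative in which the gene was tested. Without 24 h alone, the higher count was 5.

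All 3 slits of SK-N-AS were lower under the HOXC9 label. SLIT2 was at 10.48 to 11.25 (median 10.70) in these arrays and at 13.29 to 13.56 (median 13.38) in the GFP arrays. No array came within 2 of the other group (-2.64 ± 0.10, adjusted p = 3.48e-08; -2.46 at 48 and 96 h). SLIT3 (-1.14 ± 0.16, adjusted p = 0.00032) and SLIT1 (-0.80) also fell, SLIT3 by less at 48 and 96 h (-0.62). ROBO1, which binds them, was lower (-0.74), and ROBO2 did not pass (-0.23). RELN was at 8.78 to 9.60 (median 9.32) and at 10.53 to 10.71 (median 10.61), again without overlap. Its difference was -1.28 ± 0.13 (adjusted p = 4.56e-05).

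Ephrins followed the same direction in SK-N-AS, with 5 of 8 lower and 1 higher. EFNB2 was at 8.51 to 9.44 (median 8.93) in the arrays labelled HOXC9 and 10.58 to 11.01 (median 10.87) in the GFP arrays. The groups were apart at every hour (-1.94 ± 0.09, adjusted p = 1.34e-07), and its other probe gave -2.47. EFNB1 was at 10.17 to 11.12 (median 10.68) and 11.97 to 12.33 (median 12.15). It too showed no overlap (-1.61 ± 0.13, adjusted p = 9.72e-06; -1.21 at 48 and 96 h). EFNA3 (-0.86), EFNA5 (-0.61) and EFNA4 (-0.50) were lower and EFNA1 (0.73) was higher. The calls of EFNA3 and EFNA4 ended without 6, 12 and 24 h, and that of EFNA5 with the mean of all probes (adjusted p = 0.0721). That of EFNA4 also ended with 6, 12 or 24 h left out singly and in the arrays of the line alone. The call of EFNA1 ended without 24, 48 or 96 h and in the arrays of the line alone.

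Of the 13 Eph receptors in SK-N-AS, 3 were higher and 2 lower, most of them dim or dependent on the early hours. EPHA5 was at 2.68 to 3.92 (median 3.32) in the arrays labelled HOXC9 and 0.49 to 2.42 (median 1.05) in the GFP arrays. The groups did not overlap, but both lay below the 40th percentile of genes (7.28). The difference of 2.06 ± 0.38 (adjusted p = 0.00207) was 0.20 with an offset of 50 units and 1.10 (adjusted p = 0.210) without 6, 12 and 24 h. EPHA8 (1.16 ± 0.38, adjusted p = 0.0314) and EPHA6 (-1.02 ± 0.20, adjusted p = 0.00265) lost their calls without these hours as well (0.38 and -0.93, adjusted p = 0.660 and 0.0667). In the added setting of 0, 48 and 96 h, EPHA5 (1.51, adjusted p = 0.0424) and EPHA6 (-1.16, adjusted p = 0.0108) passed. EPHA8 did not pass there (0.71, adjusted p = 0.241). Its call ended under 7 of 17 alternatives, among them 6, 12, 24 or 48 h left out singly and the arrays of the line alone. EPHB3 was lower (-0.58). EPHB4 was higher (0.36), but its call ended under 7 of 18 alternatives, among them without 6, 12 and 24 h (adjusted p = 0.228). EPHB6 was at 5.13 to 5.94 (median 5.65) and 5.31 to 5.77 (median 5.44), with overlap and no call (0.11 ± 0.15, adjusted p = 0.615).

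EPHA1, EPHA3, EPHA4, EPHA7 and SEMA6A were the 5 guidance genes with means at least 1 apart between the 6, 12 and 24 h arrays of SK-N-AS labelled HOXC9 and the rest of that group. They are 9.8% of the guidance genes, a share near the 8.79% of all genes. EPHA3, a receptor of A-type ephrins, was at 12.41, 12.11 and 12.01 at 6, 12 and 24 h and at 11.11, 11.06 and 11.06 at 0, 48 and 96 h. EPHA7 was at 9.50, 9.74 and 9.58 against 8.73, 8.43 and 8.13, and EPHA4 was dim, at 2.45, 3.07 and 2.96 against 3.83, 3.91 and 4.14. The bright receptors were thus higher in the early arrays, and EPHA4 lower. EPHA1 rested on a single bright array, 6.60 at 24 h, against 0.47 to 1.98 at the other hours. Without the early hours, EPHA4 (1.65), EPHB2 (0.98) and SEMA3B (0.84) passed as higher (adjusted p = 0.0226, 0.0146 and 0.0446).

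Of the semaphorins in SK-N-AS, 3 of 10 were lower and none higher, and of the plexins and neuropilins 3 of 8 were higher and none lower. Both shares lie under the 42.2% of all genes, and without 6, 12 and 24 h the calls of NRP1, NRP2, SEMA3E and SEMA4D ended. In the added setting of 0, 48 and 96 h, NRP1 (0.83), NRP2 (0.69) and SEMA3E (-2.17) passed. Their adjusted p-values there were 0.0496, 0.0489 and 0.0135, and SEMA4D did not pass (adjusted p = 0.146). SEMA6A was at 8.70 to 10.25 (median 9.41) in the arrays labelled HOXC9 and at 11.01 to 11.68 (median 11.33) in the GFP arrays. All 6 were below the GFP range, the early 3 the furthest (-2.10 ± 0.27, adjusted p = 0.000193; -1.16 at 48 and 96 h). Its other probes were lower as well (-1.20 and -1.50). SEMA3E was at 5.06 to 6.13 (median 5.81) and 7.06 to 7.93 (median 7.66). There was no overlap (-1.86 ± 0.36, adjusted p = 0.00261), although 48 and 96 h alone gave -2.21 with an adjusted p of 0.0550. SEMA4D, a ligand of PLXNB1, was lower (-0.57), a call that ended under 6 of 17 alternatives. Among them were the early hours left out together or singly, and the arrays of the line alone.

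The neuropilins were higher in SK-N-AS. NRP1 was at 9.73 to 10.84 (median 10.10) in the arrays labelled HOXC9 and 8.02 to 9.66 (median 9.08) in the GFP arrays, so the groups just missed each other. The difference was 1.35 ± 0.24 (adjusted p = 0.00168) and 0.89 (adjusted p = 0.124) without 6, 12 and 24 h. Its other 4 probes gave 0.05 to 1.02, with 3 of them called. NRP2 was higher by 0.94 (0.78 without these hours, adjusted p = 0.103), and its other probes ran from -0.33 to 0.63. PLXNC1, the receptor of SEMA7A, rose by 1.06 ± 0.11 (adjusted p = 4.03e-05; 0.61 with an offset of 50 units). SEMA5A stayed at 0.48 to 0.79 (median 0.52) and 0.49 to 1.32 (median 0.52), next to the lowest intensity in both groups.

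Netrin genes in SK-N-AS were led by NTN4, at 9.26 to 10.85 (median 10.24) in the arrays labelled HOXC9 and 7.63 to 8.77 (median 8.11) in the GFP arrays. The ranges were separate (2.03 ± 0.15, adjusted p = 4.06e-06; 1.96 at 48 and 96 h). UNC5C (-0.81) and UNC5A (-0.44) were lower, UNC5A not without 6 h (adjusted p = 0.0552). DCC was dim, at 2.66 to 3.53 (median 3.45) and 3.64 to 3.95 (median 3.81). It did not overlap but missed the threshold at 6 to 96 h in the fit of both lines (-0.38 ± 0.15, adjusted p = 0.0689). DCC passed in the arrays of this line alone and with offsets of 16 and 50 units. NTN1 was dim in all 4 groups, with medians of 2.32 to 2.91, and passed in neither line. Over all 6 hours, 18 guidance genes did not overlap between the groups of SK-N-AS, 4 higher and 14 lower, where 20.1% of all genes did not (10.5% higher and 9.57% lower).

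The lines were then compared for the HOXC9 difference itself. Of the 51 genes, 27 differed between lines at an adjusted p under 0.05, 9 with a more positive difference in SK-N-AS and 18 with a more positive one in IMR-32, against 40.6% of all genes (20.1% and 20.5%). Both neuropilins and EFNA1 were in the first set, and RELN, EPHA5, EFNB2 and SEMA3E in the second. SEMA5A was also in the first (2.40), but it lay at the floor in both SK-N-AS groups, so its value restates the IMR-32 difference. Of the ephrins, 7 of 8 were in one set or the other. RELN and EFNB2 were both higher with HOXC9 in IMR-32 and lower under that label in SK-N-AS. The difference between lines was -7.82 ± 0.19 for RELN (adjusted p = 8.13e-09; -3.51 with an offset of 50 units) and -3.38 ± 0.12 for EFNB2 (adjusted p = 4.31e-08). NRP1 went the other way, by 2.78 ± 0.34 (adjusted p = 0.000172). NTN4 was higher in both lines, by amounts whose difference was 0.28 ± 0.21 (adjusted p = 0.317).

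Of the 17 guidance genes called in both lines, 10 ran in opposite directions (58.8%). Of the 2039 genes called in both over the whole array, 1242 did (60.9%), so this share is near the background. EFNA5, EFNB2, SEMA3E, SLIT1, ROBO1 and RELN were higher in IMR-32 and lower in SK-N-AS. EPHB4, EFNA1, NRP1 and NRP2 were lower in IMR-32 and higher in SK-N-AS. Of these 10, EFNB2, ROBO1 and RELN kept both calls under every alternative run, and each of the others lost a call in at least 1 line under at least 1 alternative. EPHA5 and NTN4 were higher in both, and EPHB3, EFNB1, UNC5A, UNC5C and SLIT2 were lower in both, of which NTN4, EPHB3 and SLIT2 kept both calls under every alternative. SLIT2 fell further in SK-N-AS, with a difference of -2.02 ± 0.14 between lines (adjusted p = 3.18e-06).

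Most called differences had the same sign in the 0 h arrays, which took no part in the fit. How many of all called genes share their sign at 0 h was not counted. In IMR-32, 25 of the 27 called guidance genes had the same sign at 0 h, the exceptions being DCC and SEMA3A. EPHA5 differed by 8.79 and RELN by 6.94 in that pair of arrays, NTN4 by 2.31, EPHB6 by 2.38, EFNB2 by 1.08, SEMA5A by -2.63 and NRP1 by -1.15. In SK-N-AS, 24 of 25 had the same sign, the exception being EFNA3. SLIT2 differed by -2.62 there, RELN by -1.78, EFNB2 by -1.57, NTN4 by 1.29 and EFNB1 by -0.85. Other called genes shared the sign with little difference at 0 h. Examples are SLIT1 (0.01) and SEMA3E (0.21) in IMR-32, and SLIT1 (-0.13) and EFNA4 (-0.12) in SK-N-AS. When the transgene was switched on relative to 0 h is not given in the labels. When the difference at 6 to 96 h was tested against that at 0 h with limma, no guidance gene passed in either line. Of all genes, 0.174% passed (0.14% higher and 0.0349% lower) for IMR-32 and 0.244% (0.11% and 0.134%) for SK-N-AS. At an unadjusted p under 0.05 there were 4 and 7 guidance genes, but the share of all genes at that cut-off was not counted. DCC in IMR-32 came nearest, with 2.22 ± 0.38 (adjusted p = 0.0602), and it passed without a replicate block. The 0 h side of this test rests on 1 pair of arrays per line, which limits what it can detect.

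**Figure D3:**
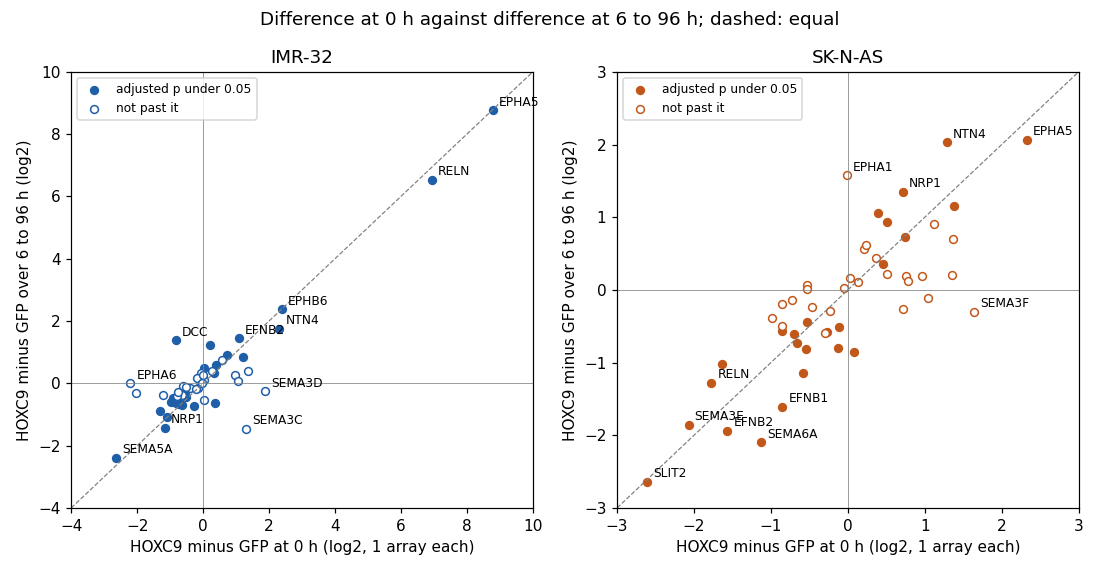
Difference in log2 intensity at 0 h (horizontal axis, 1 pair of arrays) against the mean difference at 6 to 96 h (vertical axis, 5 pairs) for the 51 guidance genes, with 1 panel per line. EPHA5 lies at 8.79 and 8.76 and RELN at 6.94 and 6.54 in IMR-32, and SLIT2 at -2.62 and -2.64 in SK-N-AS.

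The arrays labelled GFP show how different the guidance genes of both lines are under the control label. Over 0 to 96 h the HOXC9 probe averaged 12.30 in the SK-N-AS and 5.98 in the IMR-32 GFP arrays. The lines therefore differed in HOXC9 signal as well. In the 12 GFP arrays, SK-N-AS had 27 of 51 higher and 18 lower, and 6 did not pass, against 68% of all genes (38.3% higher and 29.7% lower). Differences in this comparison are SK-N-AS minus IMR-32. All 8 ephrins passed, 7 of them higher in SK-N-AS, and both neuropilins were lower. The call of EFNA2 (0.72) ended under 8 of 14 alternatives. Of the 45 calls, 36 held under every alternative in which the gene was tested. The median difference was 0.55, against 0.13 over all genes.

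Several receptors and ligands had a signal in 1 line and sat near the floor in the other. EPHA3 was at 10.86 to 11.34 (median 11.15) in the SK-N-AS and at 0.55 to 2.81 (median 0.63) in the IMR-32 GFP arrays, which is 10.11 ± 0.32 (adjusted p = 3.78e-07; 5.44 with an offset of 50 units). RELN differed by 9.52 ± 0.14 (adjusted p = 1.24e-08; 4.95 with that offset). SEMA5A stood out in the other direction, at -8.65 ± 0.11 (adjusted p = 8.81e-09; -3.72 with the offset). Of the class 3 semaphorins, SEMA3C (6.05), SEMA3E (5.95), SEMA3D (3.14) and SEMA3A (2.21) were higher in SK-N-AS, SEMA3B was higher in IMR-32 (-1.04), and SEMA3F did not pass. With an offset of 50 units SEMA3C gave 2.41 and SEMA3E 2.17. PLXNA2 (4.17) and PLXNA4 (2.13) were higher in SK-N-AS, and the co-receptor NRP2 was higher in IMR-32 (-5.48 ± 0.18, adjusted p = 5.11e-07; -2.88 over the mean of its probes). NRP1 also was (-1.28), but 1 of its probes gave 1.30. SEMA3C in IMR-32 GFP ran from 0.47 to 5.90, so its level there is poorly fixed.

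Among the rest, EFNA4 (6.47 ± 0.09, adjusted p = 1.28e-08), EPHA2 (3.89), NTN4 (2.99), EFNB2 (1.68), EFNA3 (1.60), SLIT2 (1.38) and EPHA6 (1.32) were higher in SK-N-AS. EPHB3 (1.27), EFNA5 (1.27), DCC (1.27) and UNC5C (1.22) were higher there too, DCC without a call over the mean of its probes (adjusted p = 0.351). With an offset of 50 units EFNA3 gave 0.47, and EPHA6 0.07 with no call (adjusted p = 0.103). EPHB1 (-4.46), UNC5A (-3.55), ROBO2 (-2.96), SEMA4D (-2.81), SLIT1 (-2.44), SEMA6D (-1.60), EFNB3 (-1.41), PLXNB1 (-1.31) and SEMA6A (-1.01) were higher in IMR-32. EPHB1 shrank to -0.69 with an offset of 50 units, being dim in both lines. EPHA4 is unsettled: its brightest probe gave -1.19, another 1.57, and the mean of its probes 0.31 (adjusted p = 0.263). SLIT3 and PLXND1 were bright and level between the lines, at 0.05 ± 0.09 and 0.03 ± 0.17 (adjusted p = 0.687 and 0.896).

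**Figure D4:**
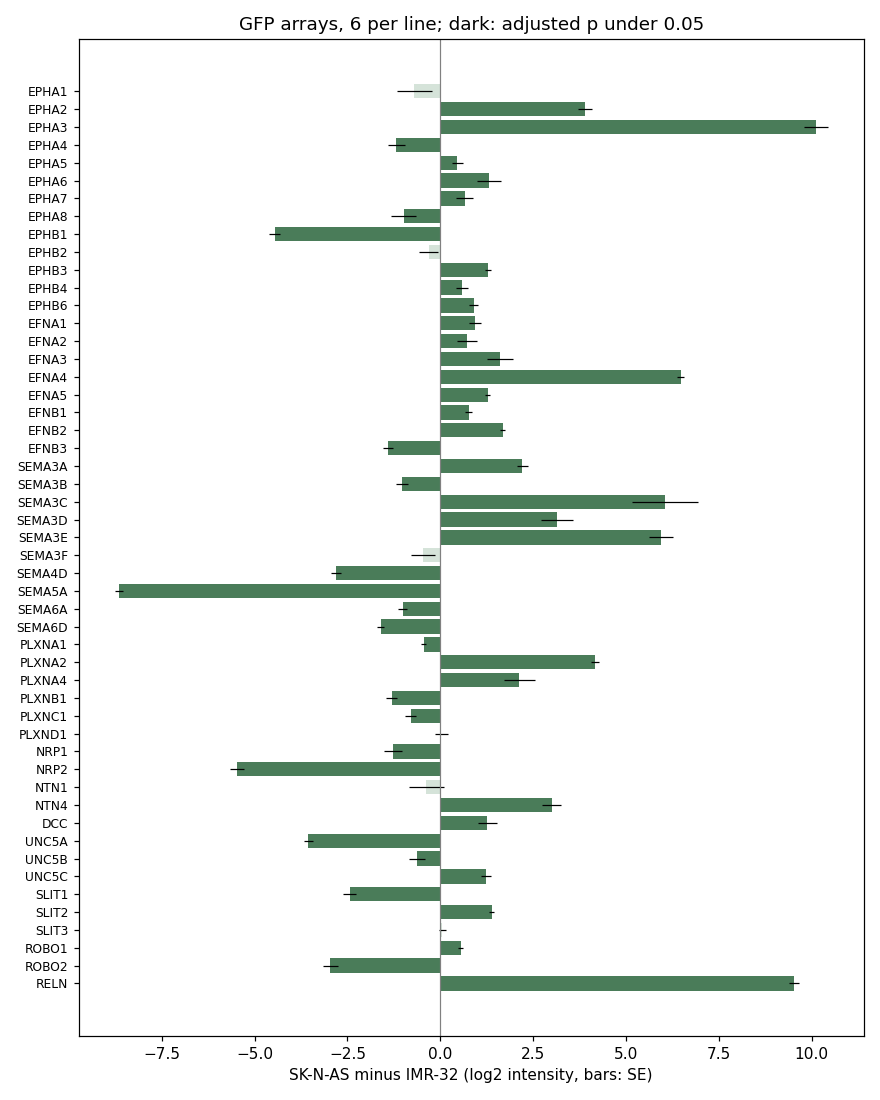
SK-N-AS minus IMR-32 difference in log2 intensity (horizontal axis) of each guidance gene in the GFP arrays, 6 per line, with bars for the standard error and darker colour for an adjusted p under 0.05. EPHA3 (10.11) and RELN (9.52) are the furthest to the right and SEMA5A (-8.65) the furthest to the left.

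Brightness limits how far these values can be read. Of the 51 genes, 15 lay below the 40th percentile level of 7.28 in each of the 4 groups, where 32.5% of all genes did. The other 36 reached that level in at least 1 group.

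Related genes outside the 51 were counted in the same fits. Of 31 further family members and co-ligands, 30 were measured. In IMR-32, 5 were higher and 5 lower (33.3% of them, against 24% of all genes), led by DRAXIN, a secreted repulsive cue that binds DCC, at 10.79 to 11.64 (median 11.00) with HOXC9 and 5.84 to 6.62 (median 6.10) with GFP. The DRAXIN groups did not overlap (4.82 ± 0.18, adjusted p = 5.64e-08). UNC5D, another netrin receptor, was lower (-2.92 ± 0.31, adjusted p = 9.66e-05), as was the adhesion protein FLRT1 (-1.15), while NTNG2, a membrane-anchored netrin relative, was higher (0.73). In SK-N-AS, 3 were higher and 12 lower (50%, against 42.2%). The reelin receptor VLDLR was lower (-2.23 ± 0.14, adjusted p = 1.78e-06) but dim, with medians of 2.31 and 4.28. NTNG1 (-1.42) and SEMA4F (-1.34) were lower and NTNG2 (1.20) higher.

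Of 35 listed names for proteins that carry the signal inward or modify it, 31 were measured. In IMR-32, 6 were higher and 3 lower, 29% of them against 24% of all genes. DPYSL3, a collapsin response mediator protein, was higher by 3.14 ± 0.12 (adjusted p = 3.93e-08), and the adhesion molecule CHL1, a neuropilin partner in mouse, rose from a median of 0.63 to 6.13 (5.06 ± 0.35, adjusted p = 4.39e-06). The axonal adhesion molecule CNTN2 was also higher (0.61). VAV3 passed as well, and its difference is not given here. In SK-N-AS, 8 were higher and 11 lower, 61.3% against 42.2%. DPYSL5, from the same family as DPYSL3, fell by 3.79 ± 0.23 (adjusted p = 1.03e-06), the adhesion molecule NRCAM by 2.29, and the actin-binding ABLIM1 by 2.15, while SRGAP2, which takes part in slit signalling, was higher (0.70). The median difference of these downstream genes was 0.10 for IMR-32 and -0.22 for SK-N-AS.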

How the data were processed

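Per the labels' protocols, total RNA was extracted with TRIzol, passed an integrity threshold, and was amplified and labelled with Cy3 for one-colour arrays. The submitters' processing notes name limma, with no version. The deposited values are linear intensities, from 1.32 to 309395 units, of 44708 features on 24 arrays. The deposited table gives each array the same median (114 units) and values that differ by at most 0.0723% at any rank, so a shift of all genes cannot be seen. No background or detection flags were used, and the table holds no counts, so depth is unknown and precision is set by how many arrays there are.

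Log2 was taken of the deposited intensity with no offset. The platform annotation gives 27942 probes 1 gene symbol and 16766 none. Symbols were updated through RefSeq (14295 current, 2936 updated, 129 ambiguous and 10 not found, both kept), giving 17199 genes, with the brightest probe, by its mean over the 24 arrays, standing for a gene. No array was left out.

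HOXC9 and GFP were compared in 20 arrays (6 to 96 h) with limma (lmFit and eBayes, two-sided), blocked by line and hour. Both lines were in a single fit and shared its estimate of each gene's spread. The GFP arrays of the lines were compared in 12 arrays with hour as a block. The difference at 0 h was tested against the later hours in 24 arrays. P-values were adjusted over all 17199 genes with the Benjamini-Hochberg method at a threshold of 0.05. Arrays of the same hour were checked for shared deviations from their group means, which correlated at 0.03 to 0.14 (IMR-32) and -0.09 to 0.16 (SK-N-AS). Genes with a called difference of at least 1 on the log2 scale were named. Full statistics were given for HOXC9 against GFP within a line, and often the difference alone between lines. Every array was summarised for the 12 with the widest HOXC9 differences. Members, lists and this rule were chosen with earlier results of these data known.

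Effects of the alternatives are given in part with the results and in the closing section. They were 2 scalings, offsets of 16 and 50 units, a filter on dim genes, all probes in place of the brightest, and eBayes with trend. Further ones were each hour left out, no block, 0 h included, each line alone, and SK-N-AS without 6, 12 and 24 h. SK-N-AS at 0, 48 and 96 h was added after seeing the data. Each model was also checked against simulated arrays with known changes. Promoter windows came from the RefSeq table of GRCh38.p14, in which 45 of the 51 genes have an entry. Software was R 4.3.3, limma 3.58.1, Python 3.11.15, pandas 2.3.3, numpy 2.4.6 and matplotlib 3.10.9.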

Additional observations from a re-analysis of the deposited data

Results flagged for a closer look

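Of 48 groups of 6 arrays checked for a single far value (12 genes in 4 groups), 4 had one, and chance gives about 1 in 20. EPHA5 was at 2.22 in the IMR-32 GFP array of 96 h, where the group's median was 0.43. SEMA5A was at 1.32 in the SK-N-AS GFP array of 0 h (median 0.52). DCC was at 2.55 in the IMR-32 HOXC9 array of 0 h (median 3.64) and at 2.66 in the 0 h array of SK-N-AS labelled HOXC9 (median 3.45).

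The HOXC9 difference was tested between lines, and 27 guidance genes passed (limma, adjusted p under 0.05). Values are SK-N-AS minus IMR-32 on the log2 scale. Among ligands that were lower in SK-N-AS relative to IMR-32, RELN differed by -7.82, EFNB2 by -3.38, SEMA3E by -3.09, SLIT2 by -2.02, SEMA6A by -1.81, SLIT1 by -1.29, EFNA3 by -1.20, EFNA5 by -1.19, EFNB1 by -1.17, SLIT3 by -1.14, EFNA4 by -0.77 and SEMA6D by -0.47. Receptors in the same direction were EPHA5 (-6.70), EPHB6 (-2.27), DCC (-1.76), ROBO1 (-1.66), EPHA6 (-1.02) and PLXNA2 (-0.70). In the other direction lay the ligands SEMA5A (2.40), EFNA1 (1.62), EFNB3 (0.89) and SEMA3A (0.70), and the receptors NRP1 (2.78), NRP2 (2.03), PLXNC1 (1.19), EPHB4 (1.05) and PLXNA1 (0.40). With an offset of 50 units EPHA5 gave -3.74, RELN -3.51, DCC -0.27 and EPHA6 -0.06. EPHA6 lost its call with that offset (adjusted p = 0.194) and under 6 other alternatives. SEMA5A lay at the floor in both groups of SK-N-AS. Of the 27 calls, 20 held under every alternative in which the gene was tested, and genes removed as dim were not tested under that filter. The SK-N-AS side of each value rests on arrays whose HOXC9 probe went against the label.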

How the results depend on the processing

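The widest called differences in each direction of a comparison, 73 values in all, were recomputed 1148 times. Of these, 1118 kept direction and call, 29 lost the call and 1 changed sign. That 1 was EPHA4 between lines of GFP arrays, at 0.31 with the mean of all probes. Lost calls were those of DCC and SEMA3E in IMR-32, of EPHA5, NRP1, EPHA8, SEMA3E and EPHA6 in SK-N-AS, and of EPHA6 in both comparisons of the lines. The cause was not tested. With each hour left out in turn, higher and lower guidance genes numbered 9 to 11 and 9 to 13 for IMR-32, 5 to 8 and 14 to 18 for SK-N-AS, 8 to 11 and 14 to 19 for the difference between lines, and 24 to 26 and 16 to 17 between the GFP arrays. Of all genes, 14.7 to 24.6% passed for IMR-32, 28.3 to 45.1% for SK-N-AS, 27.7 to 42.0% for their difference and 62.9 to 66.7% between the GFP arrays, against 35.3 to 47.1%, 39.2 to 51%, 43.1 to 58.8% and 78.4 to 84.3% of the guidance genes. The lower count of IMR-32 was 9 without 6, 12 or 24 h, and the higher count of SK-N-AS was 5 without 24 h. Against 0 h, leaving out an hour gave 0 to 1 higher and 0 to 1 lower for IMR-32, and 0 higher and 0 to 1 lower for SK-N-AS. Of all genes, 0.0814 to 1.55% and 0.145 to 2.85% passed in these fits. In the same comparison, 1 guidance gene was higher in IMR-32 when every feature was tested on its own, where 0.454% of all features passed. Without the replicate block the counts were 11 and 15 (IMR-32), 8 and 17 (SK-N-AS), 10 and 18 for their difference, 26 and 18 between GFP arrays, and 1 and 0 (IMR-32) and 0 and 0 (SK-N-AS) against 0 h. Of all genes, 25.5% then passed for IMR-32, 42.6% for SK-N-AS, 41.5% for their difference and 70.3% between GFP arrays. The shares of guidance genes were 51%, 49%, 54.9% and 86.3%. Against 0 h, 0.302% of all genes passed for either line. With dim genes left out, 69.4% of the guidance genes kept passed for IMR-32, against 25.8% of all genes kept. For SK-N-AS these shares were 61.1% and 53.9%. Levels near the lowest intensity limit the size of any difference measured against them.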
